A study of Rattus norvegicus with 3 samples.

Results

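The sodium-potassium pump was examined through 7 genes picked by name, the catalytic subunit ATP1A4, the beta subunits ATP1B1 and ATP1B3, and the FXYD regulators FXYD1, FXYD5, FXYD6 and FXYD7. The rule takes them by symbol, and the choice was made with earlier results of these data known. Of the 7, 6 are listed in the table of 12771 entries, each with 1 entry, and ATP1A4 has none. The other genes of the family, from a list of 12 that holds the members and the remaining beta and FXYD genes, are given beside them. Of these 12, 9 are listed, and ATP1B4 and FXYD4 have no entry, like ATP1A4.

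The pump moves sodium out of the cell and potassium in, at the cost of ATP, and so restores the ion gradients that axons use up when they conduct. Its alpha subunit binds the ions and splits ATP, and its beta subunit is a glycoprotein that carries the alpha subunit to the membrane and shapes the affinity for potassium. FXYD proteins are small single-span membrane proteins, named for a shared amino acid motif, that bind the alpha-beta pair and tune its affinity or speed. In nervous tissue the beta1 subunit is typical of neurons and the beta2 subunit of astrocytes.

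The RNA came from spinal cord of female Sprague Dawley rats, 3 months old, whose cord was either exposed by laminectomy at T9 without contusion (No-SCI) or also contused (SCI). Tissue just rostral of the lesion, at T8, was taken 24 h later and digested at 6°C with a cold-active bacterial protease, and the supernatant left after pelleting the cells was sequenced. The labels hold 2 No-SCI libraries and 1 SCI library, while the methods state 2 animals per condition. The table gives the authors' FPKM (fragments scaled by transcript length and by the number of mapped reads) as 1 pooled value for each group and none for a library, so no value here has an SD, no difference was tested, and the number of reads behind each gene's value is unknown, although the methods state a read number per sample. No genotype or drug distinguishes the groups, which share the laminectomy.

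A gene is called here when its SCI and No-SCI values differ by at least 2-fold, which is a description of size and not a test. Of all entries, 7.96% were at least 2-fold higher in SCI and 12.1% at least 2-fold lower, or 20.0% in either direction. Of the 6 listed members, 1 was past 2-fold, FXYD5, and it was higher. The other 5 stayed within 2-fold, so 16.7% of the listed members were past 2-fold, near the share of all entries. The log2 ratios of the members, SCI over No-SCI, ran from −0.71 for ATP1B1 to 1.86 for FXYD5, with 3 above and 3 below 0 and a median of 0.07. The median of all entries was −0.12. Setting that median to 0 would move every log2 ratio up by 0.12, and it would change the entries past 2-fold from 1016 higher and 1539 lower (39.8% higher) to 1219 and 1225 (49.9% higher).

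**Figure D1:**
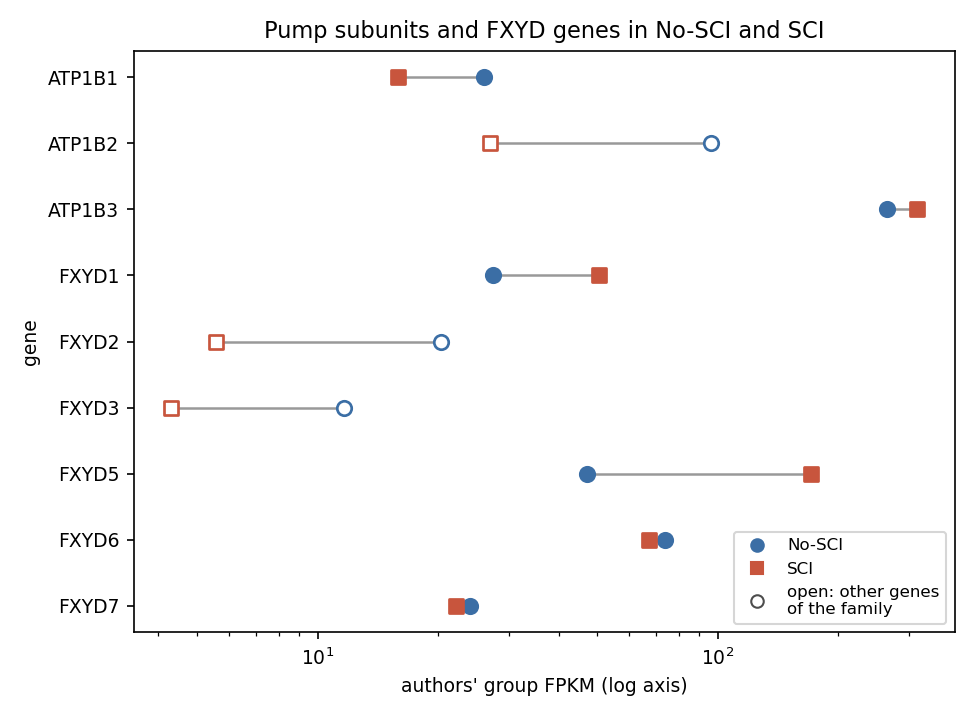
Authors' group FPKM of the 9 listed pump and FXYD genes on a log axis, with circles for No-SCI and squares for SCI joined by a line per gene. Filled symbols are the 6 listed members and open symbols the 3 other listed genes of the family. FXYD5 moves from 47.2 to 171 FPKM, and ATP1B3 is the highest gene in both groups.

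Among the beta subunits, ATP1B3 had the highest level of the 9 listed genes in both groups. ATP1B3, the beta3 subunit, which is expressed in many tissues, was at 265 FPKM in No-SCI and 315 FPKM in SCI. These levels lie at percentiles 93.9 and 94.9 of all entries. The log2 ratio of ATP1B3 was 0.25, which is 1.19-fold. ATP1B1, the beta1 subunit, which pairs with alpha subunits in neurons and in most other tissues, was at 26.0 FPKM in No-SCI and 15.9 FPKM in SCI. It was lower in SCI by 1.63-fold, a log2 ratio of −0.71, and 21.4% of all entries had a lower ratio. The 2 beta genes of the member list thus lay on opposite sides of 0.

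The balance between the beta subunits can be read within a group, where the scaling between groups plays no part. ATP1B3 was 10.2 times as high as ATP1B1 in No-SCI and 19.8 times as high in SCI, a change of 1.94-fold in that ratio. ATP1B2, the third listed beta gene, also known as AMOG, an adhesion molecule on glia, was at 96.3 FPKM in No-SCI and 27.0 FPKM in SCI (log2 ratio −1.84). ATP1B3 therefore stood 2.75 times above ATP1B2 in No-SCI and 11.7 times above it in SCI. As a share of the summed FPKM of the 3 listed beta genes, ATP1B3 made up 68.4% in No-SCI and 88.0% in SCI, whereas ATP1B1 went from 6.71% to 4.44% and ATP1B2 from 24.9% to 7.53%. The sum itself was 387 FPKM in No-SCI and 358 FPKM in SCI.

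Among the FXYD regulators, FXYD5 and FXYD1 were higher in SCI, and FXYD6 and FXYD7 were nearly level. FXYD5, also called dysadherin or RIC, a member with a long extracellular part that affects cell adhesion, was at 47.2 FPKM in No-SCI and 171 FPKM in SCI. The difference was 3.63-fold, which is 1.86 as a log2 ratio, and 2.01% of all entries had a higher ratio. FXYD5 moved from rank 3510 to rank 1179 among all entries. FXYD1, or phospholemman, a substrate of protein kinases A and C that relieves or restrains the pump in heart and skeletal muscle, was at 27.4 FPKM in No-SCI and 50.4 FPKM in SCI. Its log2 ratio of 0.88, or 1.84-fold, is short of 2-fold, and relative to the median of all entries it was 0.998. Of all entries, 9.57% had a higher ratio than FXYD1.

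FXYD6, or phosphohippolin, a brain FXYD protein, was at 73.9 FPKM in No-SCI and 67.2 FPKM in SCI, with a log2 ratio of −0.14. FXYD7, another brain FXYD protein, was at 24.1 FPKM in No-SCI and 22.2 FPKM in SCI, with a log2 ratio of −0.12. Relative to the median of all entries these ratios were −0.02 for FXYD6 and −0.0029 for FXYD7. The ratio of FXYD6 to FXYD7 was 3.07 in No-SCI and 3.03 in SCI. So the 2 FXYD genes known mainly from brain stayed near the same proportion to each other and near the middle of the table, while FXYD5 gained 3.99-fold on FXYD6 and 3.94-fold on FXYD7.

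**Figure D2:**
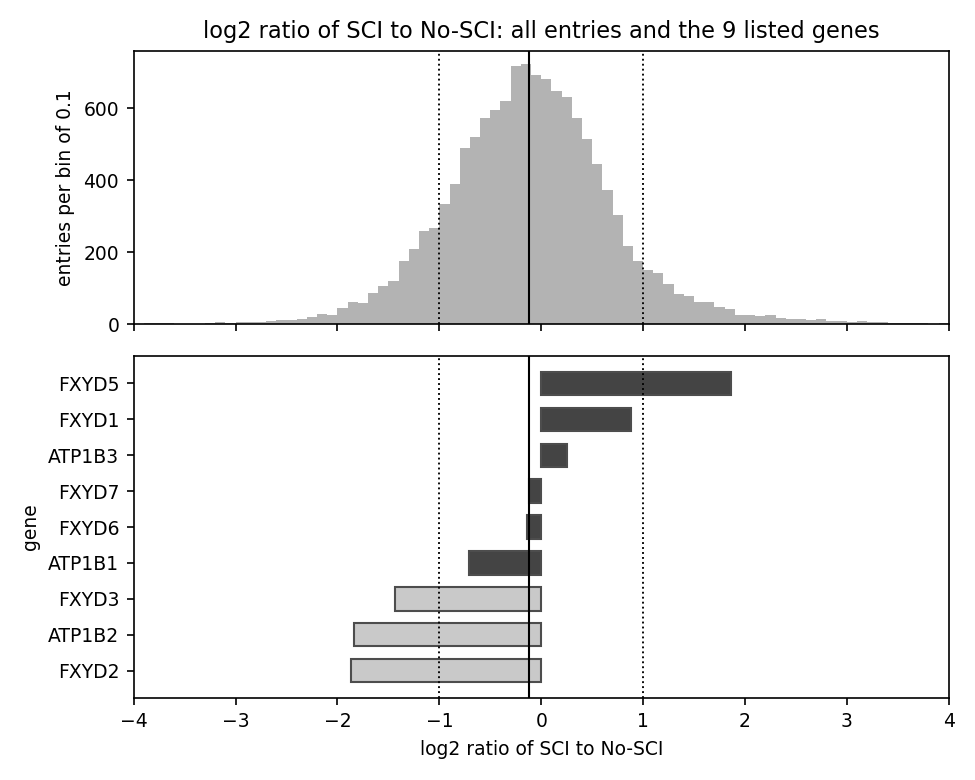
Upper panel, histogram of log2 SCI over No-SCI across all entries in bins of 0.1, with 18 entries outside the plotted range. Lower panel, the log2 ratio of each of the 9 listed pump and FXYD genes, dark for the members and light for the other genes of the family. The solid line marks the median of all entries, −0.12, and the dotted lines 2-fold. FXYD5 is the single gene past the upper line, and FXYD3, ATP1B2 and FXYD2 are past the lower one.

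The 2 other listed FXYD genes were lower in SCI by more than 2-fold. FXYD2, the gamma subunit known from kidney, was at 20.4 and 5.58 FPKM (log2 ratio −1.87). FXYD3, or MAT8, was at 11.7 and 4.30 FPKM (log2 ratio −1.44). The 6 listed FXYD genes together summed to 205 FPKM in No-SCI and 321 FPKM in SCI. FXYD5 was 23.1% of that sum in No-SCI and 53.4% in SCI, and FXYD6, the leading FXYD gene in No-SCI with 36.1%, was 20.9% in SCI. The share of FXYD1 was 13.4% and 15.7%, and that of FXYD7 was 11.8% and 6.91%. FXYD2 and FXYD3 went from 9.94% and 5.70% to 1.74% and 1.34%. By these pooled values the leading FXYD gene was FXYD6 in No-SCI and FXYD5 in SCI. Without a spread between animals, that change of order was not tested. The values of FXYD5 may also hold several estimates added up, in 1 or both groups, as described below.

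**Figure D3:**
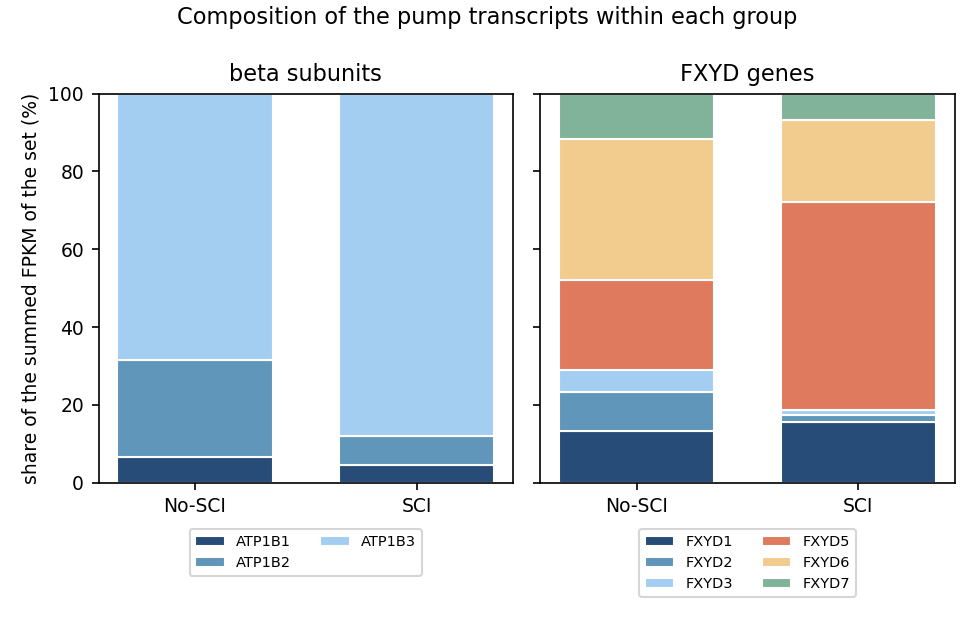
Share of each listed gene in the summed FPKM of its set, for the beta subunits and the FXYD genes, with 1 stacked bar for No-SCI and 1 for SCI. FXYD5 fills 23.1% of the FXYD bar in No-SCI and 53.4% in SCI, and ATP1B3 fills 68.4% and 88.0% of the beta bars.

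The catalytic member ATP1A4, which is known from the sperm tail, has no entry, so its level is not given. Over the 9 listed genes of the list, 1 was past 2-fold upward and 3 downward, with a median log2 ratio of −0.14. That is 44.4% past 2-fold in either direction, against 20.0% of all entries. The list is small, and the difference from all entries was not tested. The median of all entries was −0.12. The 3 genes past 2-fold downward, ATP1B2, FXYD2 and FXYD3, are the 3 that are no members.

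Ordered by level in No-SCI, ATP1B3 was first, followed by FXYD6, FXYD5, FXYD1, ATP1B1 and FXYD7. In SCI the order was ATP1B3, FXYD5, FXYD6, FXYD1, FXYD7 and ATP1B1. FXYD1, ATP1B1 and FXYD7 were close together in No-SCI, where FXYD1 was 1.14 times as high as FXYD7, and without a spread between animals no order among these 3 can be given. The values of FXYD1 in both groups and of FXYD5 in SCI are written with 7 digits, 1 more than a single Cuffdiff estimate has, as are those of FXYD2 and FXYD3 in No-SCI and 43.4% of all No-SCI values. Where that reflects several estimates added up under 1 symbol, the level of the gene relative to others depends on their number. A value with fewer digits is not thereby shown to be a single estimate.

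FXYD5, FXYD7 and FXYD1 follow one another on rat chromosome 1 in the order of the GRCr8 gene table, which was used for names and order alone. FXYD7, between a gene at 1.86 and a gene at 0.88, had a log2 ratio of −0.12. LGI4, a secreted protein of myelinating glia and the next gene after FXYD1, was at 171 and 46.2 FPKM (log2 ratio −1.89). FXYD6 is followed by FXYD2 in the same table, and FXYD6 gained 3.31-fold on FXYD2 between No-SCI and SCI. Neighbouring genes of both FXYD groups therefore differed in direction or size.

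Sequence upstream of the start sites is shown for FXYD5 and FXYD1, the 2 members with the highest ratios, for FXYD6, whose ratio was near the median of all entries, and for ATP1B3, the most abundant member. RefSeq windows of GRCr8 were given for 5 of the 7 members, of which these 4 are listed in the expression table, and FXYD5 has a pair of start sites. Each line holds the 160 bases that end just before the start site, read 5′ to 3′ on the strand of the gene, and capitals mark any match to the motifs named after them.
FXYD5, chr1:95404723-95404882, minus strand: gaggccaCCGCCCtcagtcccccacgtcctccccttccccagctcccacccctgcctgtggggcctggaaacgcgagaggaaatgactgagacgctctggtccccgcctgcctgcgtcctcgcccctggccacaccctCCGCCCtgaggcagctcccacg
FXYD5 from its other start site, chr1:95404375-95404534, minus strand: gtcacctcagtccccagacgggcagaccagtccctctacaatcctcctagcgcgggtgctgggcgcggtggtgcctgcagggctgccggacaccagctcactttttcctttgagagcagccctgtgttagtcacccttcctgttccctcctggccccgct
FXYD1, chr1:95418581-95418740, minus strand: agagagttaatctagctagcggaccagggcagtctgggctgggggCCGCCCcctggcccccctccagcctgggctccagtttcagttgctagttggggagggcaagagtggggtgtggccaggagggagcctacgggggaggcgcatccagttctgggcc
FXYD6, chr8:54575665-54575824, plus strand: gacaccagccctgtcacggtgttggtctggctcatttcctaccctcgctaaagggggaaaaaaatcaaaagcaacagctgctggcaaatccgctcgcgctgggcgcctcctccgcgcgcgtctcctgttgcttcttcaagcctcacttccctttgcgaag
ATP1B3, chr8:105821152-105821311, minus strand: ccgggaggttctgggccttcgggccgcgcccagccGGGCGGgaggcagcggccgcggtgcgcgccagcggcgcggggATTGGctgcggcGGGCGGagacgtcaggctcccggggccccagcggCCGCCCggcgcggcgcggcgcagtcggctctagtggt

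The motifs, chosen after the values were seen, were searched on both strands of the 250 bases upstream of each start site. They were the GC box (GGGCGG), the CCAAT box (CCAAT), the TATA box (TATAAA), the AP-1 site (TGANTCA) and the E-box (CACGTG). FXYD5 held 2 GC boxes upstream of its first start site shown and none upstream of the other, FXYD1 held 1, and ATP1B3 held 6 GC boxes and 2 CCAAT boxes. FXYD6 held none of the 5 motifs. Of the 33469 upstream windows in the RefSeq table, 30.5% held a GC box and 34.0% a CCAAT box, 12.9% a TATA box, 6.34% an AP-1 site and 5.59% an E-box. The GC content of the window was 79.6% for ATP1B3, 66.8% for FXYD1, 67.2% and 60.8% for FXYD5 and 55.2% for FXYD6, against a median of 51.2% over all windows. A match says that the letters are present, and nothing was measured here on binding.

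Other genes of ion transport were taken from fixed lists. Of 78 such genes, 41 are listed, and 2 were past 2-fold upward and 9 downward (26.8% past 2-fold), with a median log2 ratio of −0.57. Of all entries, 7.96% were past 2-fold upward and 12.1% downward (20.0% past 2-fold), with a median of −0.12. The difference between these genes and all entries was not tested. Among 11 listed proteins that interact with the pump or belong to its kinase pathways, 5 were higher and 6 lower. Their median log2 ratio was −0.03, and 2 were past 2-fold, both lower. They were NKAIN2, a membrane protein named for its interaction with the pump (74.4 to 35.8 FPKM), and PRKACB, a catalytic subunit of the protein kinase A that phosphorylates FXYD1 (34.1 to 13.6 FPKM). PRKACA, the other catalytic subunit of that kinase, was at 12.7 and 12.4 FPKM. NKAIN1 (2.53 and 3.82 FPKM) and NKAIN4 (29.3 and 40.4 FPKM) were higher in SCI, within 2-fold. None of the 7 listed calcium ATPases was past 2-fold, and their log2 ratios ran from −0.86 to 0.13. The H,K-ATPase genes ATP4A, ATP4B and ATP12A, the closest relatives of the pump, have no entry.

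Among the carriers and channels that use the pump's ion gradients or return potassium, genes past 2-fold lay in both directions. Of 7 listed sodium-coupled carriers 2 were past 2-fold, both lower, and the median log2 ratio was −0.86. SLC8A1, the sodium-calcium exchanger that runs on the sodium gradient, went from 32.7 to 10.1 FPKM (log2 ratio −1.70). Of 7 listed potassium-chloride cotransporters and inward rectifier channels, 3 were past 2-fold downward and 2 upward. KCNJ16, a glial inward rectifier, went from 60.7 to 18.3 FPKM (log2 ratio −1.73), and SLC12A7, a potassium-chloride cotransporter, from 2.31 to 6.51 FPKM (log2 ratio 1.49). Of 9 listed P-type ATPases of other kinds with their partner subunits, 2 were past 2-fold, both lower, and TMEM30A, the partner of the flippases and the most abundant of them, was at 55.8 and 37.4 FPKM.

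**Figure D4:**
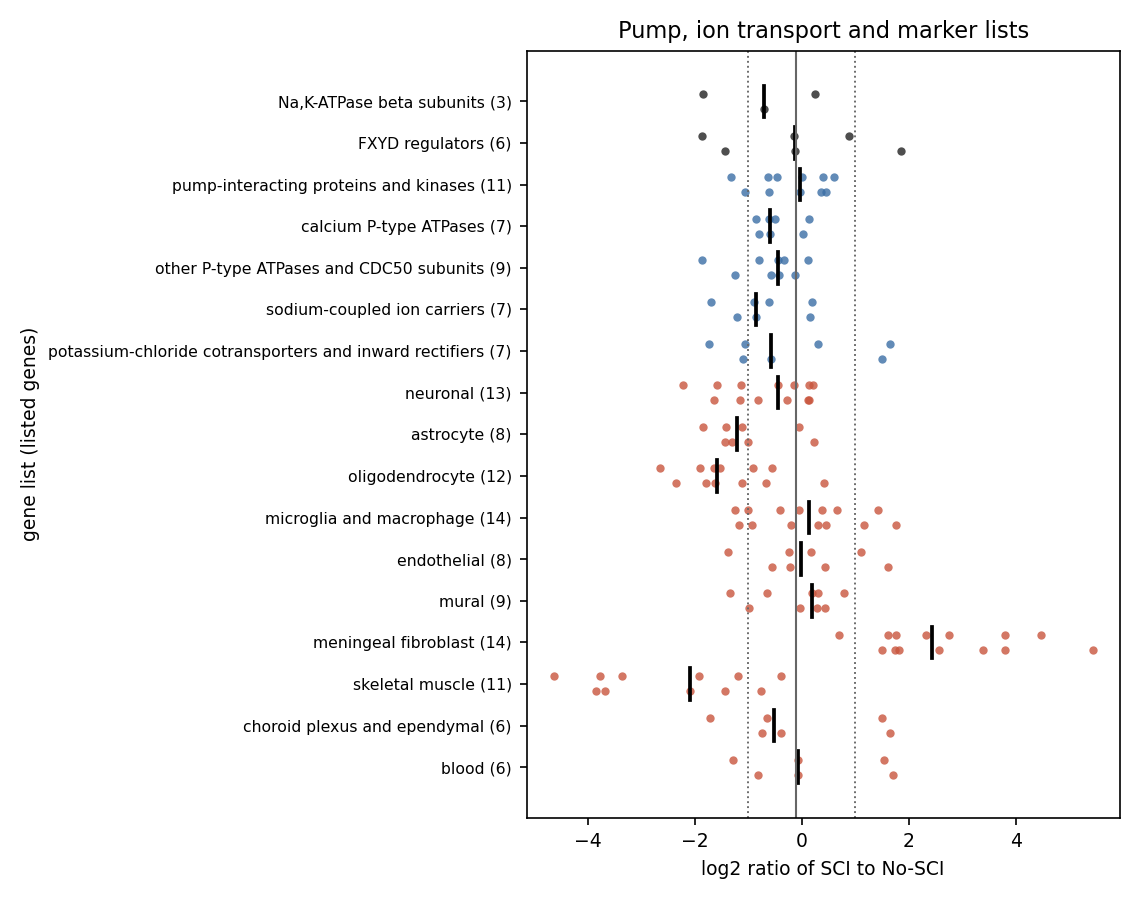
Log2 ratio, SCI over No-SCI, of every listed gene in the pump lists (black), the ion transport lists (blue) and the marker lists (red), with a black bar at each list's median and the number of listed genes in brackets. The grey line is the median of all entries, −0.12, and the dotted lines mark 2-fold. The meningeal fibroblast genes lie to the right and the oligodendrocyte and skeletal muscle genes to the left.

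Marker genes of several cell types differed between the groups beside the pump genes. All 14 genes of a meningeal fibroblast list are listed and all were higher in SCI, 13 of them past 2-fold, with a summed level of 146 FPKM in No-SCI and 1306 FPKM in SCI and a median log2 ratio of 2.44. All 14 genes of a microglia and macrophage list are listed, 7 higher and 7 lower, with a summed level of 1270 and 1484 FPKM. Of 10 blood genes 6 are listed, 2 higher and 4 lower, with a median log2 ratio of −0.08 and a summed level of 858 and 905 FPKM. S100A8 and S100A9, of neutrophils, were past 2-fold upward, the platelet gene PPBP was past 2-fold downward (log2 ratio −1.29), and HBB was at 490 and 464 FPKM. Of 15 skeletal muscle genes 11 are listed, all lower, 9 past 2-fold, with a summed level of 440 and 49.4 FPKM. Of 8 listed endothelial genes 4 were higher and 4 lower (median log2 ratio −0.02), with a summed level of 57.0 and 74.4 FPKM, of which EGFL7 alone was 13.1 and 28.2 FPKM. Of 9 listed mural genes 5 were higher and 4 lower (median log2 ratio 0.19), with a summed level of 455 and 582 FPKM, of which TAGLN alone was 383 and 517 FPKM. Of 6 listed choroid plexus and ependymal genes 2 were higher and 4 lower (median log2 ratio −0.52), with a summed level of 21.5 and 22.5 FPKM. FOLR1 (3.47 and 9.82 FPKM) was among the 2 higher. TMEM212 (4.67 and 1.42 FPKM) and RSPH1 (5.64 and 3.58 FPKM) were among the 4 lower. The part of these cell types in the values of FXYD5 and FXYD1 was not tested.

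On the neural side, 13 of 15 neuronal genes are listed, 9 of them lower and 5 past 2-fold downward, with a summed level of 1959 and 1803 FPKM and a median log2 ratio of −0.44. SNAP25 and NEFM have no entry, and RBFOX3, a nuclear protein of neurons, was at 5.94 and 5.35 FPKM. ATP1B1, FXYD6 and FXYD7 had log2 ratios of −0.71, −0.14 and −0.12 beside the neuronal median of −0.44. An astrocyte list without its pump genes has 7 listed genes, 5 of them past 2-fold downward, with a summed level of 14259 and 9059 FPKM. Most of that sum was NDRG2 (8001 and 3228 FPKM) and GLUL (5858 and 5624 FPKM). The astrocyte markers GFAP, AQP4, SLC1A3, ALDOC and S100B have no entry. Of 13 oligodendrocyte genes 12 are listed, 11 lower and 8 past 2-fold downward. Their summed level was 52677 and 30335 FPKM, of which MOBP alone was 44200 and 27648 FPKM. The part of these cell types in the values of ATP1B1 and ATP1B2 was not tested. In such bulk RNA, fewer cells or processes of a type and less of a transcript in each cannot be told apart.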

How the data were processed

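The measure is FPKM, which the authors estimated and deposited as 1 value per group. Per the methods and the submitters' processing notes, the authors depleted ribosomal RNA, made stranded total RNA libraries, brought every library down to the read number of the smallest, aligned to rn6 with STAR 2.5.4b and estimated FPKM with Cuffdiff (cufflinks 1.3.0, upper quartile normalization). The authors' own comparison columns (p, q, fold change) were not used, and 0 measurement columns lacked a group.

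Computed here were log2 ratios (SCI over No-SCI, no pseudocount), ranks, percentiles, shares within a group and list medians. No test was possible with 1 value per group. The lowest deposited value is 1, reached by 18 No-SCI and 37 SCI entries. For the 13 symbols listed more than once, lists used the entry of larger mean. The call and centring steps were tested on simulated data with set changes and no noise. That checks the arithmetic and not how reliable a call is.

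The genes and lists were chosen with earlier results of these data known. All members are named, and of each ion transport list those past 2-fold (mean of at least 1 FPKM, up to 3 per direction) and the 2 most abundant may be named, and of each marker list the 2 most abundant and 2 most changed. LGI4 is named as a neighbour. Some genes of the pump are not reported here. PRKACA, NKAIN1, NKAIN4, RBFOX3, PPBP and genes without an entry were named after their values were seen. Alternatives were pseudocounts of 1 and 0.1, median, upper quartile and total scaling, subtracting 1, a fold minimum of 1.5 or 1.3, a mean of at least 5 FPKM, list means and summed entries. For family genes outside the member list these were added after seeing the data. Upstream sequences came from RefSeq (GRCr8), another build than that of the values, so no check of length or GC content of transcripts was made. Python 3.11.15 with numpy 2.4.6, pandas 2.3.3 and matplotlib 3.10.9 was used.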

Additional observations from a re-analysis of the deposited data

How the results depend on the processing

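Under every pseudocount and scaling tried, each of the 6 listed members kept its direction and its side of 2-fold, and so did each of the 3 other listed genes of the family. The log2 ratio of FXYD5 ran from 1.84 to 1.98, that of FXYD1 from 0.86 to 0.998 and that of ATP1B1 from −0.74 to −0.59. FXYD6 and FXYD7 came closest to 0 after median centring, at −0.02 and −0.0029. A fold minimum of 1.5 or of 1.3 in place of 2 gave 2 members higher (FXYD5 and FXYD1) and 1 lower (ATP1B1), where 2-fold gives 1 and 0. The share of all entries past these lower limits was not counted, so no excess among the members can be read from them. The quartiles of the log2 ratio over all entries were −0.61 and 0.37, so such smaller differences were common. The median log2 ratio of the members, 0.07, became 0.18 after median centring, 0.17 after upper quartile scaling, and 0.34 when the mean replaced the median. The ATP1B1 to ATP1B3 ratio and the share of FXYD5 were recomputed only with 1 added to or subtracted from each value. Scaling between groups cancels in them. They did not move beyond 0.1 (log2) and 1.5 times, respectively, which says little because 1 is small beside the values of these 3 genes. Leaving out a library was not possible, because the table holds group values. No paired analysis was possible because the table has 1 pooled value per group. Without counts per gene, the counting error of FXYD3 and other low genes is unknown.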

Other observations

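The neighbours of the other members in the gene order of GRCr8 had these values. ATP1B1, with a log2 ratio of −0.71, is followed by DPT, a matrix protein on the meningeal fibroblast list, which went from 36.0 to 127 FPKM (log2 ratio 1.82), and is preceded by NME7, which went from 47.6 to 57.8 FPKM (log2 ratio 0.28). ATP1B3 is preceded by LOC102550734, which went from 27.4 to 52.6 FPKM (log2 ratio 0.94), and followed by RNF7, a ubiquitin ligase subunit, at 190 FPKM in No-SCI and 221 FPKM in SCI (log2 ratio 0.22), beside 0.25 for ATP1B3 itself. ATP1A4, which has no entry, is preceded by CASQ1, a calcium-binding protein of skeletal muscle at 2.12 and 1.63 FPKM.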
